A study of Mus musculus with 12 samples.

Results

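The set described here holds every annotated mouse miRNA gene whose symbol is Mir followed by a number of 5000 or more, Mir5046 to Mir8120 in the GENCODE M21 annotation. They are 470 of the 2202 genes of that type. The highest number outside the set was 3971, so no symbol lay near the boundary. Exact sense matches of reads of 18 nt or more were counted in 12 small-RNA libraries of mouse embryonic stem cells. Of the 470 genes, 317 had at least 1 read, 153 had none, and 177 reached 10 reads over all libraries together. Where hairpins share a read sequence, its count went once to a feature merging them. The 317 genes gave 314 features of their own, and 2 of them had only reads shared with hairpins outside the set.

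The groups used were as follows. The tagged immunoprecipitation (IP) pulled down FLAG in TT-FHAgo2 cells, which carry a doxycycline-controlled, tagged Ago2, and the untagged IP used the same antibody on TT-Ago2 cells, whose Ago2 has no tag. Inputs of both lines are RNA without IP, and all 4 of these groups had 2 libraries, A and B, from cells given 2.5 µg/mL Dox (doxycycline), cloned by a method that takes any 5' end. The other 4 libraries were single and needed a 5' phosphate: TT-FHAgo2 with 2.5 µg/mL Dox, TT-FHAgo2 with no Dox, Dicer-null cells and wildtype cells, these last without Dox. Both TT lines are clonal and were propagated in 0.1 µg/mL Dox, and the series describes cells without Ago proteins. Tag and cell line go together, so they cannot be told apart. The labels do not say whether A and B were separate cultures, so every p-value reflects how far these libraries vary, which may be technical.

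A canonical miRNA is cut from a hairpin, first by Drosha in the nucleus and then by Dicer in the cytoplasm, and 1 arm of about 22 nt is held by an Argonaute protein. Its 5' end is precise because it sets the seed, bases 2 to 8, which pairs with target mRNAs. A mirtron skips Drosha: splicing cuts 1 or both ends of the hairpin out of an intron, and Dicer does the rest. High numbers in the miRNA registry were mostly given to hairpins found by deep sequencing, so the traits of a Dicer product were asked of each: reads of 20 to 24 nt, one 5' end, loss without Dicer, gain with Dox-induced Ago2, and more in the tagged than in the untagged IP.

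The sequences below belong to some of the members that were called higher in the tagged than in the untagged IP, at high or low level. Those in RNA letters are RefSeq mature sequences (GRCm38.p6), with the seed in capitals, and no seed was shared between any 2 of the 82 members with at least 20 tagged IP reads. Only 2 of the 82 shared a seed with a lower-numbered hairpin read there: Mir5615 with Mir3066, and Mir7069 with Mir18 and Mir18b.

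miR-6540-3p: uCUGAAGCuugcuuaccucca

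miR-5113: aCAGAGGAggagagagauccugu

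miR-7083-5p: uCGGGGCUggacaagcagaga

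miR-8114: uCACCCAUcuccucuccgccu

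miR-8112: uCUCCGCCaccuccaccgca

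miR-7018-3p: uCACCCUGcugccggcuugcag

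miR-7082-3p: gCCCCCCUugcugucugucucc

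The arm of Mir6540 that led in wildtype cells has no RefSeq mature entry. It was read most often as the deposited sequence here, seed in capitals.

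Mir6540 5' arm: cTAAGGCAggcagacttcagtg

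A second set shows main reads of members that were kept or higher without Dicer. In the reads of Mir6539, Mir6399 and Mir6992 capitals mark the letters TGATG and CTGA. The read of Mir6992 is from Dicer-null cells, that of Mir5126 from the tagged input and the others from wildtype cells. Lengths of Mir6240 and Mir6236 varied. The main read of Mir6240 was 21 nt in wildtype cells but 18 nt in the tagged IP, and 34.9% of its Dicer-null reads were 18 nt. Reads of 26 nt were 6.73% of Mir6236 wildtype reads.

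Mir6539: gcacagTGATGaactCTGAgg

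Mir6399: ttgcaaTGATGgtattCTGAgg

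Mir6992: tgcctgTGATGgtttggCTGAgt

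Mir6240: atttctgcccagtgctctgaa

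Mir6236: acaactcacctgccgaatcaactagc

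Mir5126: cgcgggcggggccggggg

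In library depth, the files held 14474875 to 78762632 reads, and CPM is a count scaled to 1000000 reads of the file. Hairpins of any kind took 58.3 and 50.7% of reads in the tagged IP, against 9.19 and 13.1% in the untagged IP and 1.81 to 3.36% in the inputs. They took 10.3% with Dox against 1.30% without, and 1.42% in Dicer-null against 21.1% in wildtype cells. Of the 10 listed stem-cell miRNAs 9 were annotated, and their summed level was 205 CPM in Dicer-null against 46718 CPM in wildtype cells.

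High-numbered annotations took few of these reads. Their summed level was 301 and 306 CPM in the tagged IP, against 207 and 239 CPM in the untagged IP and 258 and 399 CPM in the tagged input. It was 598 CPM with Dox against 826 CPM with no Dox, and 946 CPM in Dicer-null against 419 CPM in wildtype cells. The sum thus stood above its control in Dicer-null cells and below it with Dox, while the hairpin share of reads went the other way in both pairs. As a share of hairpin reads the members made up 0.0516 and 0.0603% in the tagged IP, against 0.226 and 0.183% in the untagged IP. The ratio of the 2 means was 0.273 (0.228 within A and 0.329 within B), and an exact permutation test (two-sided) gave p = 0.333, which is the lowest possible with 2 against 2 libraries.

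Very few members made most of these reads, and which ones depended on the library. Mir6240, Mir6236, Mir5126 and Mir6539 together held 9.61 and 12.7% of member reads in the tagged IP, against 77.1 and 69.5% in the untagged IP and 92.2 and 95.97% in the tagged input. They held 87.4% with Dox, 91.0% with no Dox, 90.6% in Dicer-null and 80.1% in wildtype cells. In the tagged IP the leading member was Mir8114, with 30.6 and 21.6% of member reads.

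**Figure D1:**
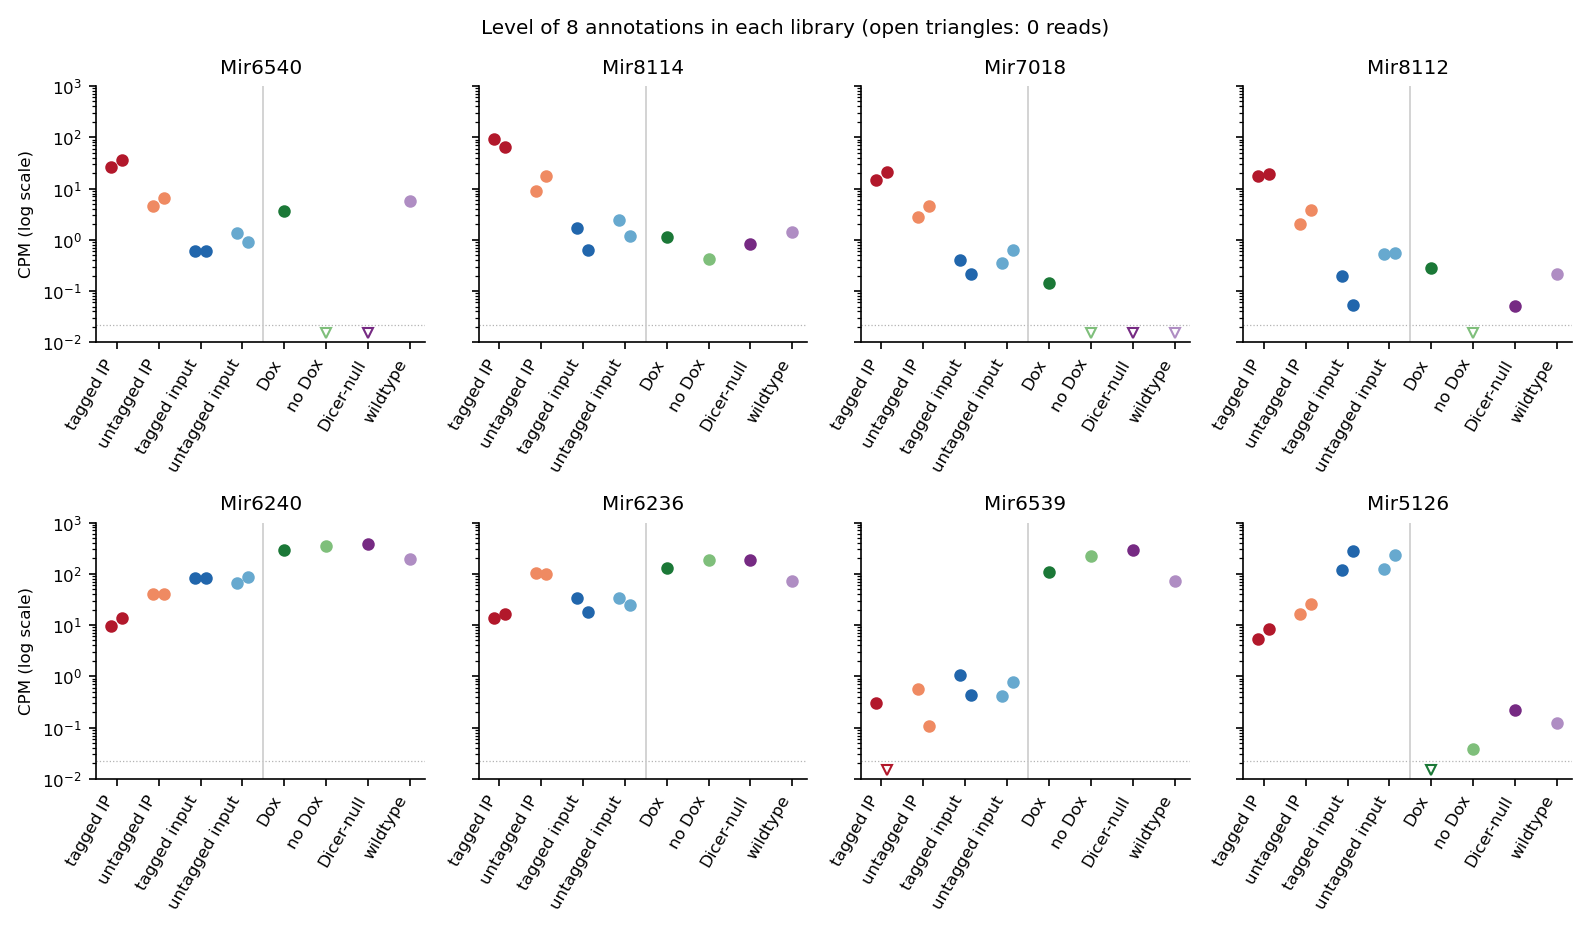
Level of 8 annotations in each library, in CPM on a log axis; each point is 1 library, open triangles are libraries with 0 reads, and the vertical line separates the cloning methods. Mir6540, Mir8114, Mir7018 and Mir8112 were highest in the 2 tagged IP libraries, while Mir6240, Mir6236 and Mir5126 were lower there than in the untagged IP.

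Mir6540 was the only member with all 5 traits, out of 8 for which each trait could be measured; over all hairpin features 280 of 404 (69.3%) had them. It lies at chr16:42303362-42303469 on the minus strand (GRCm38), in an intron of Gap43, which encodes a growth cone protein of neurons. Its level was 25.98 and 35.9 CPM in the tagged IP, against 4.63 and 6.42 CPM in the untagged IP, and 0.602 and 0.592 CPM in the tagged input. The 2 IPs did not overlap, and the log2 fold change was 2.49 ± 0.64 (SE; edgeR quasi-likelihood test, adjusted p = 0.0038). With TMM or DESeq2 factors, which centre the hairpins themselves near 0, it was 0.12 or 0.11 and not called, so under those scalings no member had all 5 traits. It had 103 reads (3.70 CPM) with Dox and 0 reads with no Dox, at least 32.7-fold higher against a floor of 3 reads. It had 0 reads in Dicer-null and 183 reads (5.67 CPM) in wildtype cells, at least 149-fold lower by the same floor.

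Both arms of Mir6540 were read, in proportions that followed the cloning method. With the 5' phosphate requirement, 3' arm reads made up 6.80% with Dox and 4.92% in wildtype cells. Without it they made up 56.9 and 61.2% in the tagged IP, against 48.8 and 57.3% in the untagged IP. The 5' arm began at hairpin position 24 (counted from 1) in 94 of 96 reads with Dox and 173 of 174 reads in wildtype cells. In the tagged IP it had 3 starts: positions 23, 24 and 26 had 27, 143 and 12 reads in library A and 70, 208 and 120 reads in library B. The 3 starts give 3 different seeds. The 3' arm began at position 64 in 235 of 243 reads in tagged IP library A and 632 of 662 in library B. One 5' end was thus met on the 5' arm in wildtype cells and on the 3' arm in the tagged IP. The other traits were counted over both arms together. The tagged input, of the same line and dose as the Dox library, had 2 of 9 and 7 of 11 reads from the 3' arm. What the method contributes was not tested, since the labels name no RNA cloned both ways.

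Mir5113 and Mir7083 had every trait but the gain with Dox, for which they had too few reads. Mir5113 lies at chr15:80940039-80940120 on the plus strand, in an exon of Tnrc6b, whose protein binds Argonaute. It had 3.89 and 2.29 CPM in the tagged IP, against 0.339 and 0.384 CPM in the untagged IP, a log2 fold change of 3.07 ± 0.75 (SE, adjusted p = 0.0038, edgeR). It had 2 reads in Dicer-null and 31 reads in wildtype cells, a ratio of 0.0264 (exact 95% Clopper-Pearson interval 0.0031 to 0.104), and 9 reads with Dox against 0 with no Dox. Its main read began 1 base before the RefSeq mature sequence, which shifts the seed. Mir7083 lies at chr9:21809941-21810000 on the minus strand in an intron of Dock6, a guanine nucleotide exchange factor, and its 3' end is the intron's acceptor. It had 1.10 and 1.10 CPM in the tagged IP, against 0.113 and 0.219 CPM in the untagged IP (log2 fold change 2.67 ± 0.89 SE, adjusted p = 0.012, edgeR). It had 0 reads in Dicer-null and 31 in wildtype cells, at least 25.2-fold lower, and 10 reads with Dox against 0 with no Dox.

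Over all members, loss without Dicer was uncommon. Of 23 members with at least 20 reads in the pair, 5 stood at 0.5 of wildtype or less in Dicer-null cells, against 68.4% of all 648 hairpin features measured. They were Mir6540, Mir7083, Mir5113, Mir7688 and Mir5128, and Mir7079 fell just outside with a ratio of 0.501. Another 7 stood at 2 times or more, against 8.33% of all features. Hairpins took 1.42% of Dicer-null and 21.1% of wildtype reads, so scaling to reads outside hairpins lowers every ratio. Calls near 2 or 0.5 thus depend on the scaling. The median ratio of Dicer-null to wildtype was 1.42 over the 23 members and 0.0133 over all 648 features. Mir7688 had 7 reads in Dicer-null and 47 in wildtype cells, yet 1 read in both tagged IP libraries together.

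Gain with Dox was as uncommon. Of 17 members with at least 20 reads in the pair, 5 had a level with Dox of 2 times or more that with no Dox, against 67.9% of all 508 features. They were Mir6540, Mir5128, the indistinguishable copies Mir5615-1 and Mir5615-2, Mir8114 and Mir6399. Only for Mir6540 did the whole 95% interval lie past 2-fold. At 0.5 or less with Dox stood 3 members, Mir5122, Mir6992 and Mir6539, against 2.95% of all features. Hairpins took 10.3% of reads with Dox and 1.30% without, so scaling to reads outside hairpins raises every ratio. Calls near 0.5 or 2 thus depend on the scaling. The median ratio was 0.754 over the members and 17.6 over all features. These are single libraries, so counting error is covered and biological spread is not.

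Read shape was judged in the wildtype library and in the tagged IP, which differ in cloning method, cell line and IP. In wildtype cells 13 members had 20 reads or more; 6 had at least 70% of reads at 20 to 24 nt (78.0% of 537 features did) and 5 had at least 70% of their major arm's reads at one 5' end (77.5% did). In the tagged IP 82 members could be judged, and 71 passed the size criterion (81.4% of 743 features) while 51 passed that for the 5' end (67.4%). Members that lost their reads without Dicer and members that kept them both occurred among those of miRNA size: Mir6539 had 98.1% of wildtype reads at 20 to 24 nt and 97.6% of Dicer-null reads.

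**Figure D2:**
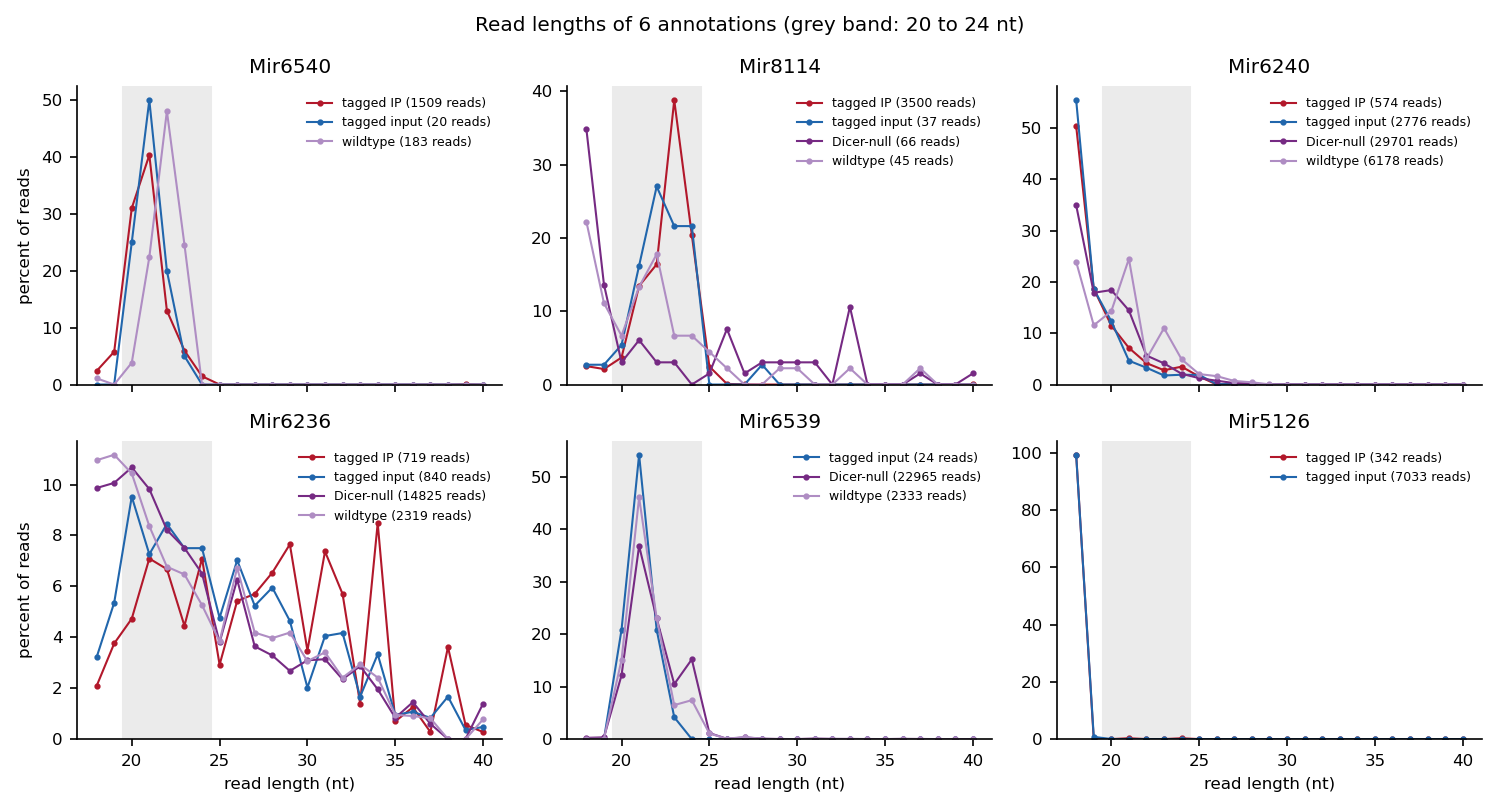
Read length distribution, as a percent of the reads of each annotation, in the tagged IP, tagged input, Dicer-null and wildtype libraries that had at least 20 reads of it; the grey band marks 20 to 24 nt. Mir6540 and Mir6539 reads lay in the band, Mir8114 reads lay in it in the tagged IP and mostly outside it in Dicer-null cells, and Mir5126 reads were 18 nt long.

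In the tagged against the untagged IP, 61 member features were high enough to test. Of these 41 rose and 4 fell (edgeR, adjusted p under 0.05), against 78.2% higher and 8.17% lower over all 698 features. The median log2 fold change was 2.10 over the members and 2.42 over all features. Under scaling by TMM or DESeq2 factors, no member was higher and 8 or 9 were lower (13.1 or 14.8%), beside 1 or 0 of all 698 features higher and 14.0 or 14.8% lower, so the direction given here is relative to all reads and not to other hairpins. The count of members higher dropped to 15 without tagged IP library A, to 10 without tagged IP library B, and to 14 without untagged IP library A, where 56.1, 51.5 and 47.9% of all features were higher, and stood at 31 to 44 without any one of the other 5. That of members lower was 2 without tagged IP library A and 1 without tagged IP library B.

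Those with the largest increases, among members with a mean of at least 1 CPM over the 4 IP libraries, were Mir5113, Mir7082, Mir8112, Mir8114, Mir6540 and Mir6948. Mir8114 was the most abundant, in an exon of Glul, the glutamine synthetase gene, at chr1:153899926-153900036 on the plus strand. It had 92.2 and 66.0 CPM in the tagged IP, against 8.86 and 17.3 CPM in the untagged IP (log2 fold change 2.60 ± 0.70 SE, adjusted p = 0.0043, edgeR). Its tagged input had 1.67 and 0.646 CPM. Mir8112, in an exon of Krcc1 at chr6:71271671-71271801, had 17.2 and 19.6 CPM in the tagged IP, against 2.03 and 3.73 CPM in the untagged IP (2.67 ± 0.66 SE, adjusted p = 0.0038, edgeR). Mir7082, in an exon of Raver1, a splicing co-regulator, had 7.24 and 6.51 CPM in the tagged IP, against 0.960 and 0.823 CPM in the untagged IP (2.94 ± 0.69 SE, adjusted p = 0.0038, edgeR). Mir6948, at an intron end of Acin1, had 1.83 and 2.03 CPM in the tagged IP, against 0.169 and 0.549 CPM in the untagged IP (2.40 ± 0.80 SE, adjusted p = 0.011, edgeR). The list was limited beforehand to called members in which both tagged libraries were above both untagged ones. The call for Mir6948 was lost without either tagged IP library or without untagged IP library A.

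For Mir8114 the total hid 2 populations of reads. In Dicer-null cells it kept 66 reads against 45 in wildtype cells, a ratio of 0.601 (95% interval 0.405 to 0.898). Of reads of 20 to 24 nt that began at the main 5' end of the tagged IP, there were 0 in Dicer-null and 17 in wildtype cells, and 17 with Dox against 0 with no Dox. In the tagged IP 92.8% of Mir8114 reads were 20 to 24 nt, against 15.2% in Dicer-null and 51.1% in wildtype cells. All of its reads also match the Glul exon, so reads from hairpin and mRNA share their letters. This restriction to the main end was chosen after seeing the data.

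Members that fell in the tagged IP were Mir6236, Mir6516, Mir6240 and Mir5126. None of the 4 stood below wildtype in Dicer-null cells, though Mir5126 had only 21 reads in that pair. Mir6236, at chr9:110281287-110281409, had 13.9 and 16.3 CPM in the tagged IP, against 103 and 101 CPM in the untagged IP (log2 fold change -2.76 ± 0.65 SE, adjusted p = 0.0038, edgeR). Mir6240, at chr5:114851948-114852064, had 9.43 and 13.9 CPM in the tagged IP, against 39.6 and 39.6 CPM in the untagged IP (-1.76 ± 0.61 SE, adjusted p = 0.014). Neither annotation lies in a gene on its strand, and the main read of neither began within 30 bases of the RefSeq mature start. Reads that also occur outside annotated transcripts, for example in ribosomal RNA repeats, could not be recognised. Whether the reads of Mir6240 and Mir6236 arose at these loci was therefore not tested. In wildtype cells one 5' end held 13.2% of the major arm's reads for Mir6236 and 52.6% for Mir6240. Their Dicer-null to wildtype ratios were 2.62 (95% interval 2.51 to 2.74) and 1.97 (1.92 to 2.02).

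Mir5126 was read in the libraries that take any 5' end and was nearly absent from the others. It had 5.29 and 8.47 CPM in the tagged IP, against 16.5 and 25.7 CPM in the untagged IP (-1.61 ± 0.66 SE, adjusted p = 0.031, edgeR). Its inputs had 120 and 282 CPM in the tagged line and 123 and 227 CPM in the untagged line. In the 4 libraries that need a 5' phosphate it had 0, 1, 17 and 4 reads with Dox, with no Dox, in Dicer-null and in wildtype cells, that is at most 0.216 CPM. Its reads were nearly all the single GC-rich 18-mer shown above, the shortest length counted. The calls for Mir6240, Mir5126 and Mir6516 were each lost without tagged IP library A or tagged IP library B. They were lost too when counts were scaled to reads outside hairpins, with log2 fold changes of -0.62, -0.49 and -1.04 (adjusted p = 0.39, 0.51 and 0.21, edgeR). For Mir6240 and Mir6516 they were also lost without untagged IP library A, and for Mir5126 without untagged IP library B or without the filter on low counts.

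**Figure D3:**
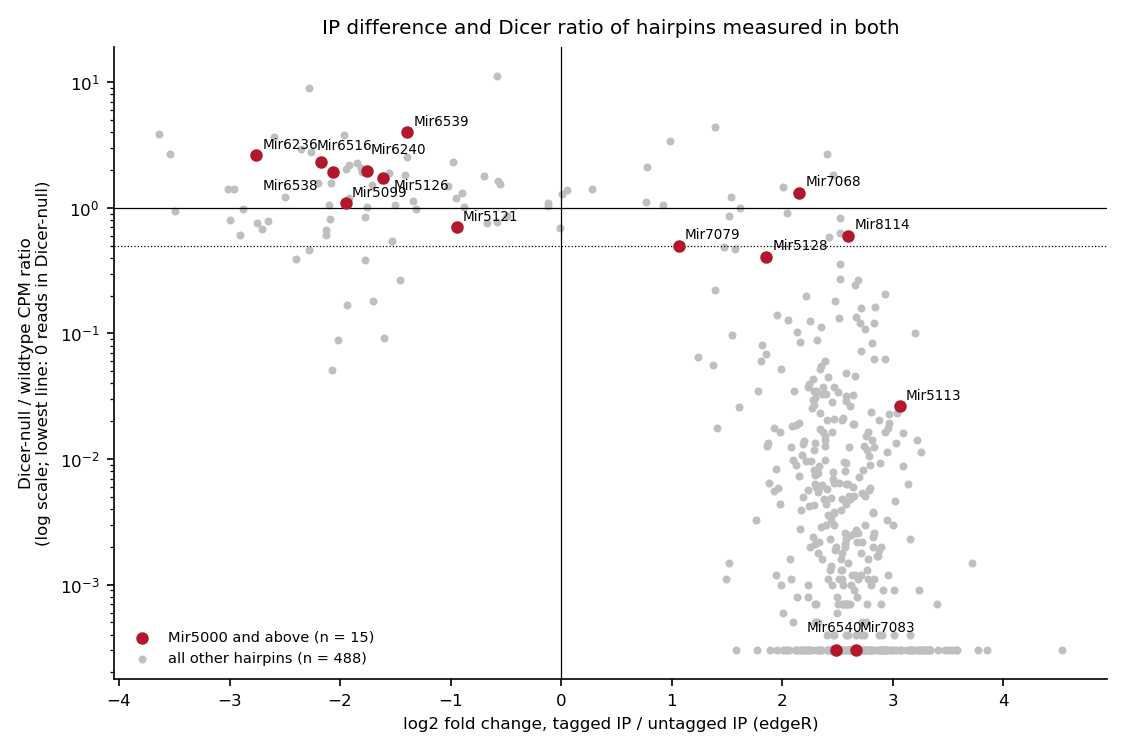
Log2 fold change of tagged over untagged IP (horizontal) against the Dicer-null to wildtype CPM ratio (vertical, log scale, 0 reads on the lowest line), for each hairpin feature tested in the IPs and with 20 reads in the Dicer pair. Members (red) fell into both areas that the other hairpins (grey) occupy: Mir6540, Mir7083 and Mir5113 at the lower right, and Mir6236, Mir6240, Mir6539 and Mir6516 at the upper left.

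Members kept without Dicer included pieces of other small RNAs. Mir6516 overlaps the scaRNA gene Gm26083, of the class that guides modification of spliceosomal RNA, and its main wildtype read of 31 nt ended at the last base of that gene, at chr11:117077405-117077435. Mir5121 overlaps Snord33, a C/D box snoRNA gene, and its main read of 18 nt lay inside it. These were the 2 of 470 members that overlap an annotated small-RNA gene of another class on their strand. Mir6516 had 0.426 and 0.731 CPM in the tagged IP, against 4.01 and 1.37 CPM in the untagged IP (log2 fold change -2.17 ± 0.74 SE, adjusted p = 0.013, edgeR), and 43.3 CPM in Dicer-null against 18.7 CPM in wildtype cells. Mir5121 had 0.609 and 0.764 CPM in the tagged IP, against 1.52 and 1.15 CPM in the untagged IP, which did not pass the test (-0.94 ± 0.65 SE, adjusted p = 0.18, edgeR). It had 14.9 CPM in Dicer-null against 21.1 CPM in wildtype cells.

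Mir6539 and Mir6399 lie in introns of Dock5 and Eif4g3 and in no annotated snoRNA, yet their main reads carry the letters TGATG near the start and CTGA near the end. These letters, on the read's strand, occur in that order in the main wildtype read of 2 of 13 members (15.4%) and of 1 of 399 hairpins numbered below 5000 (0.251%). In Dicer-null cells they occur in 3 of 16 members (18.8%), the third being Mir6992, and in 1 of 166 below 5000 (0.602%). C/D box snoRNAs are known for motifs that hold these letters; a match is a description and not a site. Mir6539 had 292 CPM in Dicer-null against 72.3 CPM in wildtype cells, a ratio of 4.03 (95% interval 3.86 to 4.21), and 109 CPM with Dox against 223 CPM with no Dox. In the libraries that take any 5' end it was 0.110 to 1.07 CPM where it was read at all, and it had 0 reads in tagged IP library B. Its fold change between the IPs did not pass the test (-1.39 ± 1.20 SE, adjusted p = 0.27, edgeR). Mir6399 had 2.92 CPM in Dicer-null against 1.83 CPM in wildtype cells and 3.05 CPM with Dox against 1.36 CPM with no Dox, and 1 read in the 4 IP libraries.

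Of the other members with extreme ratios, Mir6992, at an intron end of the vesicle-fusion gene Stx5a, stood at 1.82 CPM in Dicer-null against 0.248 CPM in wildtype cells (ratio 7.32, 95% interval 3.62 to 17.3). Its ratio of Dox to no Dox was 0.477 (0.314 to 0.713), and it had 1 read in the 4 IP libraries. Mir5136, in no gene on its strand, had a Dicer-null to wildtype ratio of 3.57 (2.15 to 6.29), and its main Dicer-null read was 40 nt, the full read length. Mir5099 had 11.9 CPM in Dicer-null against 11.01 CPM in wildtype cells, a ratio of 1.08 (0.958 to 1.23). In the IPs it did not pass the test (log2 fold change -1.95 ± 0.90 SE, adjusted p = 0.051, edgeR), but the call depended on the fit. The adjusted p was 0.028 with the replicate block (-1.72), 0.014 with TMM factors (-4.17) and 0.00034 with DESeq2 (-4.23), against 0.36 scaled to reads outside hairpins (-0.82). Without 1 library it ranged from 0.015 to 0.58, the highest without untagged IP library B (-0.59).

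Against its own input, a comparison with the same tagged IP libraries as above, the tagged IP held more of 52 and less of 7 of the 61 members, beside 83.4% higher and 8.17% lower over all features. Medians were 5.28 for members and 4.86 for all. The 7 that fell were Mir6240, Mir5126, Mir6539, Mir6516, Mir5099, Mir5121 and Mir6538, and TMM and DESeq2 scaling left 2 higher and 9 lower (3.28 and 14.8%), beside 5.30 or 6.16% of all features higher and 17.2 or 17.9% lower. Without tagged IP library B, 4 fell. Mir6540 stood 5.68 ± 0.76 above input on the log2 scale and Mir8114 6.10 ± 0.84 (SE, adjusted p = 1e-05 for both, edgeR). The untagged IP against its input, a control for what binds without the tag, had 23 members higher and 3 lower, beside 49.0% and 2.44% of all features. Fewer members were called higher without tagged IP library B, untagged input A or untagged IP library B, each a fit with 1 library in a group. Without untagged input B no member passed in either direction, and few features of any kind were higher. For the other fits the share over all features is not given here, so the fall cannot be read as particular to members. Without untagged IP library A or B the members lower were 1 or 2. At an unadjusted p under 0.05, 30 members were higher.

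Subtracting the gain of the untagged line from that of the tagged line gives the difference between the 2 lines, in which tag and clone go together. Here above or below 0 means passing the test in that direction (edgeR, adjusted p under 0.05 unless stated), not the sign alone. The difference was above 0 for 14 of 61 members and below 0 for 1, Mir6236, beside 55.2% and 4.44% of all features. The medians, over all tested whether or not they passed, were 2.54 and 2.84. Without tagged IP library A, tagged IP library B or tagged input B no member passed in either direction, but neither did any of the 795, 761 and 808 features tested, and the median over members was 2.62, 2.42 and 2.55. At an unadjusted p under 0.05 those fits had 13, 13 and 11 members above 0. Members above 0 were 7 without tagged input A, 1 without untagged IP library A and 4 without untagged input A, beside 48.8, 9.80 and 16.5% of all features. TMM and DESeq2 scaling gave 0 above and 7 below (11.5%), beside 0 of all features above and 11.03 or 13.75% below.

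Many members are placed as mirtrons would be. The hairpin's 3' end lay within 3 nt of an annotated splice acceptor for 188 of 470 members, and both ends lay at splice sites for another 14, that is 40.0% and 2.98%. Of 704 hairpins numbered below 5000, let-7 included, the counts were 13 and 6 (1.85% and 0.852%). The median hairpin was 70 nt long with 54.3% GC among members, against 84 nt and 47.7% GC below 5000. An exon of a protein-coding gene was overlapped by 100 members (21.3%), and 242 (51.5%) lay in such a gene without overlapping any exon. Here and for single members, "in an exon" means any overlap with an exon of any annotated transcript. Such a hairpin can also lie in an intron of another transcript.

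Of the 82 members with at least 20 tagged IP reads, 41 ended at an acceptor. Their reads had the size of miRNAs in 38 of 41 (92.7%), against 90.7% of 473 hairpins numbered below 5000, and one 5' end in 26 of 41 (63.4%), against 70.8%. The main read came from the 3' arm in 32 of 41 (78.0%), against 47.8%. The main read ended within 2 nt of the hairpin end in 31 of 41, and it began with T in 29 (70.7%), against 51.4% below 5000. It began exactly at a RefSeq mature 5' end in 33 of 40 with a mature entry (82.5%), against 76.7% below 5000. Members ending elsewhere began there in 26 of 41 (63.4%).

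Mir7018 shows the geometry in full. Its hairpin, chr4:137538286-137538370 on the plus strand, is a whole intron of Hspg2, the gene of the basement membrane proteoglycan perlecan, with both ends exactly at the splice sites. It had 14.7 and 20.9 CPM in the tagged IP, against 2.77 and 4.66 CPM in the untagged IP (log2 fold change 2.26 ± 0.65 SE, adjusted p = 0.0054, edgeR), though with TMM or DESeq2 factors the value was -0.082 or -0.097. The call was lost without tagged IP library B or untagged IP library A. The tagged input had 0.401 and 0.215 CPM. It had 4 reads with Dox and 0 with no Dox, in Dicer-null and in wildtype cells. Among reads that match the hairpin exactly, the main one is the first 20 bases of the 3' arm shown above, which stops before the acceptor's AG. In the tagged IP 871 reads matched exactly. Another 2474 ran 1 base past the hairpin end and so held the AG.

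Reads at intron ends often carried extra 3' bases. In the tagged IP the median share of reads with 1 or 2 bases that do not match the hairpin was 39.1% over the 41 members at acceptors (quartiles 22.1 and 57.1%). It was 17.9% over the 41 other members and 8.98% over 473 hairpins numbered below 5000. These shares count sequencing errors too and have no test. Any base past the hairpin end counts as unmatched, and hairpins at acceptors were mostly read up to that end. Of 4971 reads with 1 unmatched base at acceptors, 345 had it inside the hairpin, against 2304768 of 2313606 below 5000. T made up 39.4% of those 345 and 54.7% of those below 5000. The shares therefore cannot be compared as added bases alone. For reads that ran exactly 1 base past the hairpin end, the first base of the next exon could be looked up. For 39 members that exon begins with a base other than T. Of their 1838 such reads, 1613 (87.8%) carried T and 34 (1.85%) the exon's base, and T outnumbered the exon's base in 33 of the 36 members that had such reads. Mir6944 had the most, 450 reads, of which 421 carried T, 21 carried A and 1 carried the exon's G. For Mir7018 the exon begins with T, so its 2414 reads with T cannot be told apart from reads of the exon junction's letters. Allowing these tails, 98 members could be tested and 70 were higher in the tagged IP (71.4%), beside 78.1% of all 784 features.

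**Figure D4:**
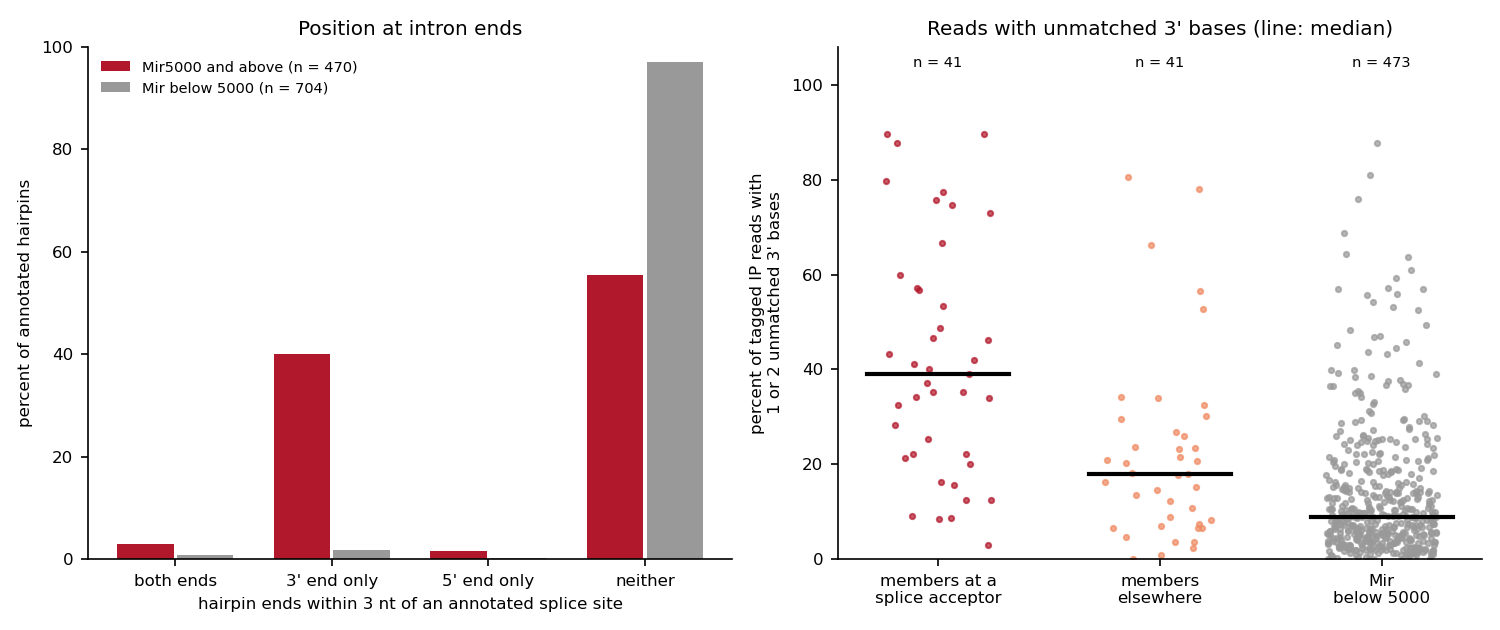
Left, percent of annotated hairpins whose ends lie within 3 nt of annotated splice sites, for Mir5000 and above (470) and below 5000 (704). Right, percent of tagged IP reads with 1 or 2 unmatched 3' bases for hairpins with at least 20 reads, 1 point each, with medians of 39.1, 17.9 and 8.98%. Any base past the hairpin end counts as unmatched.

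The summed level of members at acceptors was 75.6 and 84.3 CPM in the tagged IP, against 13.7 and 24.03 CPM in the untagged IP and 2.94 and 1.40 CPM in the tagged input. It was 9.38 CPM with Dox against 7.38 CPM with no Dox and 9.69 CPM in Dicer-null against 13.2 CPM in wildtype cells. Members ending elsewhere summed to 225 and 221 CPM in the tagged IP, against 194 and 215 CPM in the untagged IP, and 936 CPM in Dicer-null against 406 CPM in wildtype cells.

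Members abundant in the tagged IP were often scarce in the wildtype library. Of 30 with at least 1 CPM in both tagged IP libraries, 15 had 3 or fewer wildtype reads, and 6 had 3 or fewer in all 4 libraries that need a 5' phosphate. Of 414 hairpins numbered below 5000 at that level, 17 (4.11%) had 3 or fewer wildtype reads. The median ratio of tagged IP to wildtype CPM was 29.8 for members and 3.75 below 5000. Mir7082 had 0 reads in the 4 libraries. Levels were not matched between the 2 sets, and cloning method, cell line and IP all differ between these libraries, so they cannot be told apart.

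**Figure D5:**
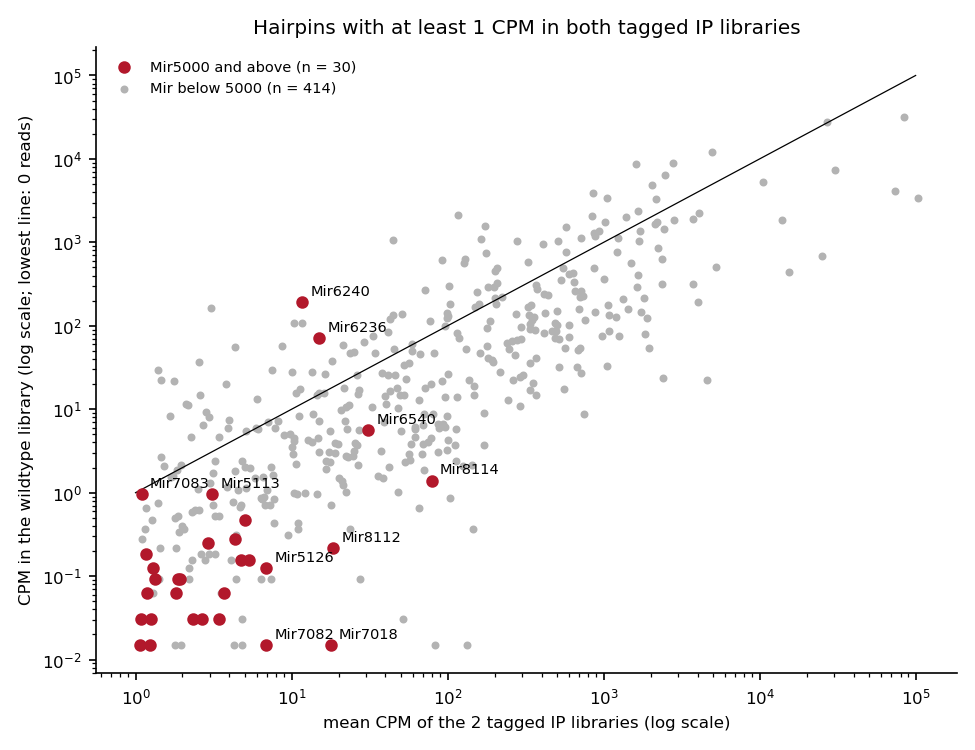
Mean CPM of the 2 tagged IP libraries (horizontal, log scale) against CPM in the wildtype library (vertical, log scale, 0 reads on the lowest line) for hairpins with at least 1 CPM in both tagged IP libraries; the line marks equal values. Of the 30 members (red), 15 had 3 or fewer wildtype reads, and Mir6240 and Mir6236 lay above the line.

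For scale, hairpins outside the set included Mir294 of the stem-cell cluster, with 124042 and 82717 CPM in the tagged IP, against 23348 and 30212 CPM in the untagged IP. It had 4.13 CPM in Dicer-null against 3410 CPM in wildtype cells. Mir877, a known mirtron numbered below 5000, had 102 and 84.6 CPM in the tagged IP, against 15.7 and 22.1 CPM in the untagged IP, and 0.0508 CPM in Dicer-null against 6.73 CPM in wildtype cells. The most abundant high-numbered member of the tagged IP, Mir8114, was thus near Mir877 in level there, while its total count did not share the loss without Dicer.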

How the data were processed

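The authors deposited, for each library, distinct read sequences with raw counts, not normalised; per the labels' protocols, RNA of 18 to 75 nt was gel-selected. How adapters were trimmed is not given in those sources. Members and lists were chosen with earlier results of these data known. Reads of 18 nt or more were matched exactly, sense strand, to GENCODE M21 miRNA genes (GRCm38); of the 470 members, 436 matched RefSeq by symbol. No genome was given, so reads from other loci cannot be recognised unless annotated. The A and B libraries also differ in read length (50 and 51 nt). CPM uses the file total (14474875 to 78762632 reads). All 4 replicated groups entered 1 edgeR 4.0.16 fit (R 4.3.3): quasi-likelihood tests, library totals, filterByExpr and Benjamini-Hochberg adjustment at 0.05 over 698 features. DESeq2 1.42.0 and TMM were alternatives. Single libraries were compared by ratios with exact 95% Clopper-Pearson intervals and a floor of 3 reads, which cover counting error only, as PCR copies are not separate molecules. The 2 libraries of a group never agreed within counting error, with a chi-square of 67.6 to 602 for each degree of freedom. On simulated data the fit of tagged against untagged IP, with 536 features, recovered 90 of 100 4-fold and 35 of 100 2-fold changes, with 3 false calls among 336. The simulation gave every feature the same dispersion, left out features of low mean count and left most features unchanged. Its rates therefore do not carry over to scarce members or to a shift of most hairpins. Python 3.11.15, pandas 2.3.3 and scipy 1.17.1 made the tables.

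Shape needed 20 reads and a share of 70%, and the folds for Dicer and Dox were 2. Named members had all traits, were among the 10 with the highest mean CPM, the 6 largest called increases or decreases between IPs (mean of at least 1 CPM, no overlap; 4 decreases existed), or the 4 lowest or highest Dicer or Dox ratios with 100 reads; others are named as the members of a count of few or were chosen after their values were seen. In all, 17 were named by the rule. Tails, exon bases, box letters, the ends of Mir6540 and main-end reads were chosen after seeing the data.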

Additional observations from a re-analysis of the deposited data

Results flagged for a closer look

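For 7 of the named members the gain from input to IP differed between the tagged and the untagged line, by the test of the difference itself (edgeR, adjusted p under 0.05). The log2 difference, tagged line minus untagged line, was 3.42 for Mir6540, 3.26 for Mir8114, 2.93 for Mir7018, 4.38 for Mir5113, 4.41 for Mir7082 and 4.78 for Mir8112. It was -2.60 for Mir6236, whose level fell in the tagged IP against the untagged IP. These differences share their 4 groups of 2 libraries, and when tagged IP library A, tagged IP library B or tagged input B was left out no feature of any kind passed, members included, while the median over members was 2.62, 2.42 and 2.55 (2.54 with all libraries). Over all 698 features, 55.2% passed the same test above 0 and 4.44% below 0 (edgeR, adjusted p under 0.05).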

How the results depend on the processing

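Counts of members called are given as higher and lower. Some settings changed how many features were tested, so a larger count need not be a larger share. In every comparison 291 members were tested without the filter on low counts and 98 with 3' bases removed. Scaled to reads outside hairpins 104 were tested, and 63 with each gene given all its reads. Where no share over all features stands beside a count, its change cannot be read as particular to members. For tagged against untagged IP (41 and 4 of 61 as reported) they were 0 and 8 with TMM factors and 0 and 9 with DESeq2. With unmatched 3' bases removed they were 70 and 6 of 98 (71.4 and 6.12%), beside 78.1 and 7.27% of all features. Scaled to reads outside hairpins they were 87 and 1 of 104 (83.7 and 0.962%), beside 84.8 and 1.21% of all features. Leaving out 1 library gave 10 to 44 and 1 to 5. For tagged IP against input (52 and 7) they were 2 and 9 with TMM, 2 and 9 with DESeq2, 111 and 6 without the filter on low counts, 88 and 8 with 3' bases removed, and 95 and 3 scaled to reads outside hairpins; leaving out 1 library gave 54 to 69 and 4 to 7. For untagged IP against input (23 and 3) they were 0 and 5 with TMM, 0 and 6 with DESeq2, and 41 and 3 with 3' bases removed; giving each gene all its reads left 2 lower, and leaving out 1 library gave 0 to 24 and 0 to 3. For the difference of gains (14 and 1) they were 0 and 7 with TMM and with DESeq2, 4 and 0 without the filter, 22 and 2 with 3' bases removed, 29 and 0 scaled to reads outside hairpins, and 16 and 3 with each gene given all its reads; leaving out 1 library gave 0 to 12 and 0 to 2, and the fits without tagged IP library A, tagged IP library B or tagged input B called no feature of any kind. At an unadjusted p under 0.05, TMM gave 1 member higher between the IPs and DESeq2 gave 0. Only reads found in no other annotated gene gave 31 and 4, 37 and 5, 17 and 3, and 12 and 1; that setting tests fewer members (44). Other settings moved these counts by less than 1.5 times.

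A fit with the code as a replicate block gave 42 and 5, 52 and 7, 25 and 3, and 13 and 1; the member it added as lower between the IPs was Mir5099 (-1.72, adjusted p = 0.028, edgeR). The correlations of deviations between groups were 0.0672 to 0.481, but 2 codes do not show that the libraries were paired.

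Loss without Dicer (5 members) counted 1 with 100 reads, 3 with reads in no other gene and 2 with reads at the main 5' end. Gain with Dox (5) counted 1 at 4-fold, 2 with 100 reads, 3 with reads in no other gene, 1 with the whole interval past the fold and 0 at the main 5' end. Size (6) counted 71 in the tagged IP and 2 with 100 reads. One 5' end (5) counted 9 at 50%, 3 at 90%, 51 in the tagged IP and 2 with 100 reads. All traits (1, Mir6540) counted 0 with TMM factors, 0 with DESeq2 and 0 with reads at the main 5' end, where Mir6540 had under 20 reads in the Dicer and Dox pairs; these settings were added after seeing the data. It counted 1 with 50% for shape, shape in the tagged IP, 4-fold, or any 1 library left out of the IP test. The share ratio against the untagged IP (0.273) was 0.248 to 0.305 without 1 library and 0.179 with reads in no other gene, and that against input (0.0367) was 0.0253 to 0.0666 and 0.0207. Among named members, values of 4 changed sign. Mir6539 was 0.16 without untagged IP library A (-5.68 without tagged IP library A), Mir5121 was 0.19 scaled to reads outside hairpins, Mir7018 was -0.082 with TMM and -0.097 with DESeq2 (log2 fold changes), and the Dicer ratio of Mir5099 was 0.823 scaled to reads outside hairpins. The causes were not tested. Depth limits most members: the floor of 3 reads is 0.0381 to 0.207 CPM per library.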
